A study of Mus musculus with 4 samples.

Results

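The nuclei described here were the neural progenitor cells (NPC) of the adult mouse dentate gyrus, split into cycling and non-cycling ones. Membership was set in the cluster that the authors labelled NPC, which held 211 of the 14367 nuclei. The UMIs (unique molecular identifiers, 1 per captured RNA molecule) of 6 genes, Top2a, Mki67, Neil3, Mcm6, Lockd and Pola1, were summed in each nucleus. Nuclei with 3 or more of these UMIs were called cycling and nuclei with 0 or 1 non-cycling. In the libraries taken 1 and 2 weeks after labelling (w1 and w2), 133 nuclei were cycling, 40 were non-cycling and 14 held 2 such UMIs and entered neither class. The rule therefore chose the classes from measured values, and what it used is given as a description with no test.

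The series is a time course of single-nucleus RNA sequencing of adult-born granule cells, with 1 library at each of 1, 2, 4 and 8 weeks after tamoxifen. All groups shared 1 genotype and treatment: mice with a tamoxifen-inducible Cre and the CAG-floxStop-Sun1/sfGFP reporter on a C57BL/6J background, 6 to 8 weeks of age, that received 4 tamoxifen injections over 2 days. Cre switches on a green nuclear envelope protein in the stem and progenitor cells in which it is active at that time and in their progeny, and green nuclei were sorted from the dissected dentate gyrus, so the nuclei are a labelled lineage and not all progenitors of the tissue. Each library pooled the left dentate gyri of 4 mice of both sexes, and the classes were compared within w1 and within w2. The p-values therefore rest on 2 pools of different weeks and not on animals. The fit drew the spread of every gene fully to the trend over all genes. A p-value thus does not measure a gene's own spread between these pools. The w4 and w8 libraries gave too few non-cycling nuclei for the comparison (2 each) and are given as values.

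NPC lie between the radial glia-like stem cells (RGL) and the neuroblasts (NB1) of the granule cell lineage, and they divide before their daughters become neurons. Cycling cells copy their DNA in S phase, with origin licensing and fork proteins, nucleotide enzymes and repair factors, and separate the copies in mitosis with condensins, kinetochores, spindle motors and the cytokinetic ring. Many S-phase genes are switched on by E2F factors, and many mitotic genes by complexes that read a CCAAT box and a cell-cycle homology region (CHR) just before the start site.

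The stretches before 5 genes that the results turn on are shown first, because these letters are the textbook elements of cell-cycle genes. Each line holds the 160 bases before the RefSeq start site (GRCm38.p6), 5′ to 3′ on the strand of the gene, with matches to CCAAT, to the CHR letters TTTGAA or TTTAAA, or to 8 E2F octamers in capitals, on either strand. ATTGG is CCAAT read on the opposite strand, TTCAAA is TTTGAA and CCCGCCAA is TTGGCGGG.
Top2a, chr11:99024190-99024349, minus strand: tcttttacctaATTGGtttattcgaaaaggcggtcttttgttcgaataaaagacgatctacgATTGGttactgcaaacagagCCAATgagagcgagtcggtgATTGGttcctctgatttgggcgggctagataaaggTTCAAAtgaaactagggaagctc
Kif11, chr19:37376222-37376381, plus strand: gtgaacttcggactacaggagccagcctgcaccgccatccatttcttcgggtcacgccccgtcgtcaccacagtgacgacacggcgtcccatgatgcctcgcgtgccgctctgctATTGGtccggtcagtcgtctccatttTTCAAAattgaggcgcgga
Clspn, chr4:126556820-126556979, plus strand: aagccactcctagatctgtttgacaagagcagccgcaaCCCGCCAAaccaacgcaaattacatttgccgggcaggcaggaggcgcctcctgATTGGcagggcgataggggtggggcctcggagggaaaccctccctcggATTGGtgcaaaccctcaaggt
Brip1, chr11:86201194-86201353, minus strand: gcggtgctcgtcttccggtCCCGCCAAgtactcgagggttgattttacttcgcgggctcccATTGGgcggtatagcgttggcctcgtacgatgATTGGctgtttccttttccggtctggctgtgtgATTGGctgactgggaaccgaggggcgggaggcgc
Egfr, chr11:16752043-16752202, plus strand: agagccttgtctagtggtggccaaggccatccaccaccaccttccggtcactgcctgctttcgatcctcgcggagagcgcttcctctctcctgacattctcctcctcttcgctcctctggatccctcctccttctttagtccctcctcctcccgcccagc
Top2a and Kif11, which act in mitosis, held CCAAT and CHR letters, Clspn and Brip1, which act at replication forks and in repair, held CCAAT and E2F letters, and Egfr, which was lower in cycling nuclei, held none of them in this stretch. These genes were picked after the matches were seen, and the letters did not follow the direction gene by gene. The same stretch held none of them for Tyms, Anln, Melk, Cenpp, Hjurp, Knl1, Atad5, Mms22l and Rad18, which were higher in cycling nuclei, or for the rule genes Neil3 and Lockd, while a stretch of Slc1a2, Gli2, Pde4b and Nr3c2, which were lower, held some.

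In w1, 84 of 112 NPC were cycling (75%, exact 95% binomial interval 65.9 to 82.7), and in w2, 49 of 75 (65.3%, 53.5 to 76.0). In w4 the count was 19 of 22 (86.4%, 65.1 to 97.1) and in w8 it was 0 of 2. These intervals cover counting error only, and weeks were not tested against each other because each week is 1 library. The sum over the 6 genes had no gap at the cut. In w1, 10 nuclei held 0 rule UMIs, 10 held 1, 8 held 2, 9 held 3, 7 held 4 and 55 held 8 or more, up to 43. In w2 these counts were 8, 12, 6, 7, 7 and 26, with a highest value of 45. Between 6 and 12 nuclei of each library thus lay at each value from 1 to 3, on either side of the cut.

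**Figure D1:**
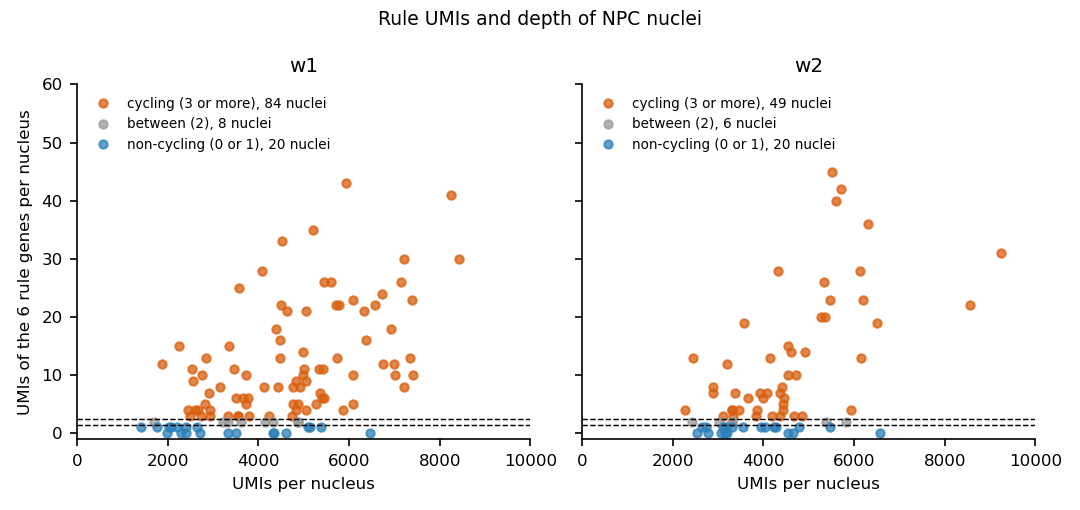
UMIs of the 6 rule genes in each NPC nucleus (vertical axis) against all UMIs of that nucleus (horizontal axis), 1 point per nucleus, in w1 and w2, with dashed lines at the limits of the classes. The sums run from 0 to 43 in w1 and to 45 in w2 with no gap at the limits, and the nuclei with the most UMIs are cycling.

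The rule genes cover both replication and mitosis. Top2a, the topoisomerase that untangles chromosomes, gave 202 UMIs in cycling w1 nuclei and 149 in cycling w2 nuclei, and 0 in the non-cycling nuclei of both libraries. Mki67, which coats mitotic chromosomes, gave 58 and 39 UMIs against 1 and 0. Mcm6, a subunit of the replicative helicase, gave 102 and 71 UMIs against 2 and 3, and Pola1, the catalytic subunit of DNA polymerase alpha, gave 483 and 243 against 6 and 7. Of the 133 cycling nuclei, 132 held a UMI of Mcm6 or Pola1, 71 held one of Top2a or Mki67, and 70 held both kinds. Of the cycling nuclei, 18 held UMIs of 1 rule gene alone and 19 held all 6. A UMI of Mcm6 or Pola1 but not of Top2a or Mki67 was in 62 of them. Pola1 had a UMI in 37.6% of NB1 and 31.1% of RGL nuclei. It was in 11.9% and 17.8% of nuclei in the clusters that the authors labelled Astro and Oligo, at a median of 4670 and 4801 UMIs. In the neuron clusters GCimm1, GCimm2, GCyoung and GCmat1 it was in 42.8%, 43.3%, 37.5% and 37.6% of nuclei, at medians of 5045.5 to 8138 UMIs. A UMI of Pola1 was thus not confined to NPC, and the part of free RNA in these shares was not tested. Top2a had a UMI in 39.3% of NPC, 0.349% of NB1 and 1.08% of RGL nuclei, at a median of 4278, 4057.5 and 4091 UMIs per nucleus. With the same limit, 10.9% of w1 RGL, 4.77% of w2 RGL, 7.77% of w1 NB1 and 6.90% of w2 NB1 nuclei would count as cycling.

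The markers of the class are given as a description. Top2a and Mki67 were used by the rule, and 71 of 133 cycling nuclei held a UMI of either. Eomes, the transcription factor that marks intermediate progenitors, had 348, 185, 241 and 226 UMIs per 1000000 UMIs of the sum (CPM) in non-cycling w1, non-cycling w2, cycling w1 and cycling w2 nuclei, against 0 and 2.35 CPM in RGL and 39.8 and 27.6 CPM in NB1 of w1 and w2. Both classes thus carried Eomes well above the RGL and NB1 levels. The paper named Eomes among the genes by which it recognised NPC, so this follows from the cluster label and is no check of it. A UMI of Eomes was in 15 of 40 non-cycling and 61 of 133 cycling nuclei. "Non-cycling" stands for few UMIs of 6 genes and not for the absence of cell-cycle RNA. With each nucleus thinned to 2000 UMIs, which left out 3 non-cycling and 1 cycling w1 nuclei of lower depth, the median sum over 76 genes of origin licensing, replication forks and nucleotide supply was 3 UMIs in non-cycling w1 nuclei and 6 in non-cycling w2 nuclei, against 15 and 18 in cycling ones. The highest non-cycling nucleus held 11 in w1 and 21 in w2, the latter above the cycling median.

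The classes also differed in depth and in sex-linked RNA. Depth is tied to the rule, which counts raw UMIs, so that a deeper nucleus reaches the limit more readily. With the same limit after thinning to 2000 UMIs, 55.1% of 107 w1 NPC and 48.0% of 75 w2 NPC were cycling. How far the rule set the difference in depth was not tested. Cycling nuclei were deeper, with a median of 4833 UMIs against 2667 in w1 and 4439 against 3420.5 in w2, ratios of 1.81 and 1.30. After thinning to 2000 UMIs, the median number of detected features was 1298 against 1307 in w1 and 1370 against 1353 in w2. The balance of sex-linked RNA differed in w1: 60 cycling nuclei had more UMIs of Ddx3y, Uty and Eif2s3y (Y-linked) than of Xist and Tsix (X-linked), and 13 the reverse, against 4 and 14 non-cycling nuclei. In w2 the counts were 18 and 29 against 7 and 13. Xist and Eif2s3y, tested with the other genes and named after values were seen, had log2 changes of -0.66 and 2.19 and were not called (edgeR, adjusted p = 0.162 and 0.0938). The part of depth and of sex in the results below was not tested, and refits that bear on them are given in the closing section. No barcode was shared between NPC of w1 and w2.

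A pair of the 20 non-cycling w1 nuclei stood apart. Their pseudo-time, the position along the lineage that the authors deposited, was 3.16, while the other w1 NPC lay at 7.53 or above except for 1 cycling nucleus at 2.28. The first held 109 UMIs of Trpm3, 64 of Enpp2, 46 of Ttr and 24 of Htr2c, genes of the choroid plexus, and the second held 42 UMIs of Slco1a4, 34 of Flt1 and 10 of Vwf, genes of endothelium. Neither had a UMI of Eomes. The summed level of 21 microglial, endothelial and mural markers was 10504 CPM in this pair, 34.9 CPM in the other 18 non-cycling w1 nuclei, 79.3 CPM in non-cycling w2 nuclei, and 99.3 and 79.8 CPM in cycling w1 and w2 nuclei. Most of the 91 UMIs behind the level of the pair were the Slco1a4 and Flt1 UMIs of the second nucleus. The first held 2 UMIs of Slco1a4, 4 of the microglial gene Cx3cr1 and 0 of Flt1, and its choroid plexus genes are not among the 21 markers. Flt1 and Slco1a4 were at 0 in the other 18, in non-cycling w2 nuclei and in the cycling nuclei of both libraries. These genes and the pair were picked out after their values were seen. Refits without nuclei of pseudo-time under 6 left out this pair and also the cycling w1 nucleus at 2.28, which held 8419 UMIs, and the named genes whose call was lost without nuclei of pseudo-time under 6 are named as such below.

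Cycling NPC had more RNA for copying DNA, for repairing it and for building kinetochores and spindles than non-cycling NPC and less RNA of the growth factor receptor Egfr and the glutamate transporter Slc1a2. The rule itself summed genes of replication and mitosis. Higher RNA of genes expressed with them was therefore set in part by the rule and is a description. UMIs were summed per library and class, which gave 402884 and 225688 UMIs for cycling w1 and w2 and 66039 and 75685 for non-cycling w1 and w2, and tested with the quasi-likelihood test of edgeR with the library as a block. Calls needed both an adjusted p (Benjamini-Hochberg) no higher than 0.05 and a change of 1.5-fold or more. Of 3813 genes tested with the rule genes left out, 143 were called (3.75%): 115 were higher in cycling nuclei (3.02%) and 28 lower (0.734%). The median log2 change over all tested genes was -0.003.

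The number of calls changed with the tool, the depth and the nuclei and sums that entered the fit. On the same sums, DESeq2 called 2 genes, both higher (91 at an unadjusted p under 0.05), and with nuclei thinned to 2000 UMIs edgeR called 0 of 1777 (173 at an unadjusted p under 0.05). Without nuclei of pseudo-time under 6, 55 genes were higher and 6 lower, all of them among the 115 and the 28, and 114 of 114 higher genes and 23 of 26 lower genes that could be tested kept their direction. The 59 higher genes that lost the call had a median log2 change of 2.06 with all nuclei and 1.98 without these, and for the 20 lower genes that lost it and could be tested the medians were -1.60 and -1.20. The prior degrees of freedom of the spread, which set how far the spread of a gene is drawn to the trend over all genes, were infinite with all nuclei and 15.5 without these. They were 4.10 with thinned nuclei and 12.6 with sums of the other clusters, and their part in the counts of calls was not tested. With sums of the other clusters added to both libraries, 67 genes were called. With these sums and 1 library at a time, 0 genes were called from w2 (365 at an unadjusted p under 0.05, edgeR) and 10 from w1. As a description of genes chosen on these same sums, the genes that were higher had, summed, 3.58 times the CPM in cycling as in non-cycling w1 nuclei (95% counting interval 3.33 to 3.85) and 2.78 times in w2 (2.61 to 2.98). In w4, which was outside the fit and had 2 non-cycling nuclei, the ratio was 3.33 (2.63 to 4.28) for the higher and 0.299 (0.240 to 0.374) for the lower genes. The lower genes had 108 UMIs in these 2 nuclei, and Egfr, given below, made up a large part of them.

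**Figure D2:**
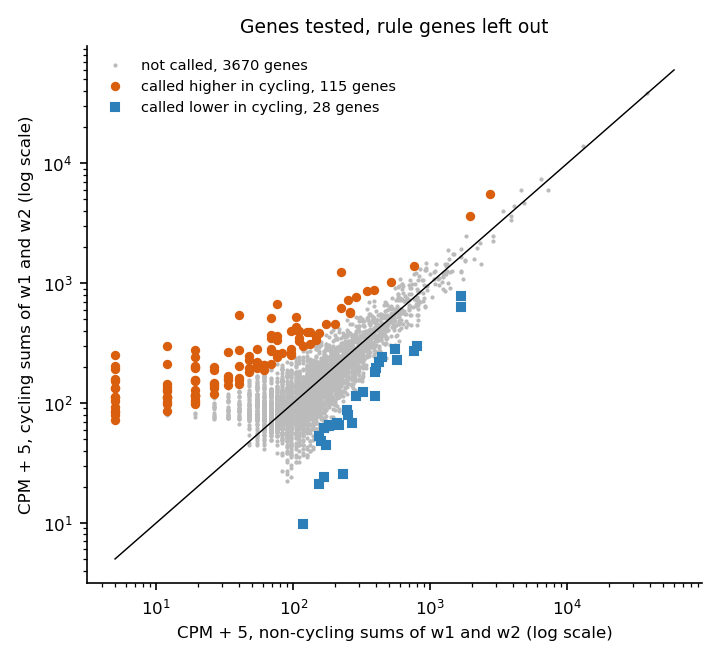
Level of each tested gene over both cycling sums against both non-cycling sums, as CPM + 5 on log axes, with a line of equal levels. The 115 genes called higher lie above the line, 15 of them with no UMI in non-cycling nuclei at its left edge, and the 28 called lower lie below it.

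Of the 115 higher genes, 70 were members of 9 cell-cycle lists and 45 were in none. The lists held 306 genes, of which 305 had a feature and 158 passed the filter on low counts. Of these 158, 43 reached the filter limit of 66.4 CPM in both non-cycling sums and 112 only in both cycling sums, so members that were tested had in large part to be high in cycling nuclei, and the counts below describe the lists without supporting them. Of all 3813 genes tested, 2557 reached it in both non-cycling sums and 841 only in both cycling sums. The share of all genes tested that stands beside each list count is thus from genes with an unlike route through the filter. None of the 158 was lower, 88 were not called, and their median log2 change was 1.71 (1.69 with genes that had no non-cycling UMI set at a floor of 3 counts), beside -0.003 over all genes tested. Without nuclei of pseudo-time under 6, 42 of the 158 were called, all higher (median 1.66).

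Of 19 fork genes tested, 10 were higher, beside 3.02% of all genes tested, and 9 were not called (median log2 change 1.75). Atad2, a chromatin ATPase of replicating cells, had 2 and 7 UMIs in non-cycling w1 and w2 nuclei and 214 and 107 in cycling ones, a log2 change of 2.99 (SE 0.45, adjusted p = 2.26e-08). Atad5, which unloads the sliding clamp PCNA, and Prim2, the large subunit of primase, rose by 2.59 and 2.30 on the log2 scale. Nasp, a histone chaperone, had 11, 25, 224 and 126 UMIs in the same order, a log2 change of 1.19 (SE 0.34, adjusted p = 0.019). Without nuclei of pseudo-time under 6 its adjusted p was 0.108, and 7 of the 19 genes were called.

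Clspn (claspin, which carries the replication checkpoint signal) had 0 UMIs in all 40 non-cycling nuclei and 73 and 45 in cycling w1 and w2 nuclei, where 65 of 133 nuclei held one. It was at least 8.87-fold higher against a floor of 3 counts over both non-cycling sums (21.2 CPM), and 0 of 40 nuclei allows a share with a UMI of up to 7.5%. Of 12 licensing and firing genes tested, 1 was higher, beside 3.02% of all genes tested (median 0.78). This was Ticrr, which helps to fire origins, with 0 and 2 UMIs against 35 and 23, a CPM ratio of 6.54 (1.73 to 55.3, adjusted p = 0.0484, or 0.143 without nuclei of pseudo-time under 6, where 0 of the 12 were called by edgeR). Of 5 nucleotide supply genes, 2 were higher, beside the same 3.02% (median 2.40). Tyms, the enzyme that makes thymidylate, had 0 UMIs in both non-cycling sums and 65 and 32 in the cycling ones, at least 7.29-fold higher. Rrm1, the large subunit of ribonucleotide reductase, had 0 and 1 against 47 and 29, a ratio of 17.1 (2.98 to 686).

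In DNA repair and checkpoint, 13 of 25 tested genes were higher, beside 3.02% of all genes tested, and 12 were not called (median log2 change 2.07). Without nuclei of pseudo-time under 6, 10 of the 25 were called. Rad51b, which acts in homologous recombination, had 4 and 10 UMIs in non-cycling w1 and w2 nuclei and 232 and 95 in cycling ones, a log2 change of 2.33 (SE 0.41, adjusted p = 4.86e-06). Brip1, a helicase that works with BRCA1, had 0 and 1 UMIs against 138 and 46, a CPM ratio of 41.5 (7.35 to 1647, adjusted p = 3.75e-08). The non-cycling sums of both genes lay below both cycling sums. Mms22l, which acts at stalled forks, rose by 1.95 and Rad18, the ligase that ubiquitinates PCNA, by 2.42 on the log2 scale. Rad51ap1, another recombination gene, had 0 non-cycling UMIs and 52 and 29 cycling ones, at least 6.09-fold higher, with a UMI in 52 cycling nuclei. The RNA Brip1os, named after values were seen, lies by Brip1 and had 16, 20, 243 and 118 UMIs (log2 change 1.16, adjusted p = 0.0228, or 0.0847 without nuclei of pseudo-time under 6).

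Of 23 genes of chromosome structure tested, 8 were higher, beside 3.02% of all genes tested, with a median log2 change of 0.99. Without nuclei of pseudo-time under 6, 5 were called. The 3 condensin genes among those named were Smc2 (5, 9, 186 and 80 UMIs in non-cycling w1, non-cycling w2, cycling w1 and cycling w2 nuclei, log2 change 2.04), Smc4 (1, 8, 105 and 63, 2.14) and Ncapd3 (2, 7, 141 and 73, 2.42), with adjusted p from 3.62e-05 to 0.000843. Lmnb1, which encodes lamin B1 of the nuclear envelope, rose by 1.45 (SE 0.41, adjusted p = 0.0176, with a rise of 1.39 and adjusted p = 0.0896 without those nuclei). Esco2, which acetylates cohesin in S phase, had 0 UMIs in non-cycling nuclei and 38 and 30 in cycling ones, at least 5.11-fold higher.

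Kinetochore and spindle checkpoint genes were called in 14 of 17 tested cases, all higher, beside 3.02% of all genes tested. Their median log2 change was 2.47 (2.27 with genes at the floor), and 6 were called without nuclei of pseudo-time under 6. Cenpp, a protein of the inner kinetochore, had 30.3 and 106 CPM in non-cycling w1 and w2 nuclei and 678 and 629 CPM in cycling ones, a log2 change of 3.23 (SE 0.43, adjusted p = 9.16e-11). Knl1, the scaffold of the outer kinetochore, had 2 and 0 UMIs against 91 and 81, a ratio of 19.4 (5.29 to 161). Hjurp, the chaperone of the centromeric histone, rose by 1.63 and Cenpk by 1.96 on the log2 scale, or by 1.56 and 1.88 with adjusted p of 0.0622 and 0.0896 without those nuclei. Ttk, a kinase of the spindle checkpoint, had 0 UMIs in non-cycling nuclei and 41 and 26 in cycling ones, at least 5.04-fold higher.

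Of 26 genes of motors, spindle and cytokinesis, 17 were higher, beside 3.02% of all genes tested, and 9 were not called. Their median was 2.80, or 2.46 with genes at the floor, and 9 were called without nuclei of pseudo-time under 6. Kif11, the motor that pushes spindle poles apart, had 0 UMIs in all 40 non-cycling nuclei against 91 and 64 in cycling w1 and w2, with a UMI in 55 of 133 nuclei, at least 11.6-fold higher (adjusted p = 5.8e-09, or 0.00439 without nuclei of pseudo-time under 6). Kif4, a motor that rides on chromosomes, gave 0 against 86 and 38 and was at least 9.32-fold higher. Kif23 and Anln, which act at the midbody and the cytokinetic ring, were at least 6.01-fold and 4.66-fold higher, and Melk, a kinase of dividing cells, at least 4.13-fold. Diaph3, a formin that assembles actin, had 5 and 0 UMIs against 229 and 107, a log2 change of 3.87 (SE 0.51, adjusted p = 4.63e-11). The centrosome genes Cep192 and Cdk5rap2 rose by 1.68 and 1.21, and the kinesin Kif24 by 2.44. Without those nuclei their log2 changes were 1.61, 1.14 and 2.32, with adjusted p of 0.0951, 0.163 and 0.0795.

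Called genes were 3 of 15 cyclin, CDK, inhibitor and E2F-Rb genes (median 1.03) and 2 of 16 chromatin genes (median 0.30), all higher, beside 3.02% of all genes tested, of which 1 and 2 were called without nuclei of pseudo-time under 6. The difference between lists was not tested. E2f7, a repressor of E2F targets, had 0 and 1 UMIs against 62 and 20, a ratio of 18.5 (3.23 to 739), and Skp2, which marks CDK inhibitors for destruction, had 1 and 2 against 54 and 27, a ratio of 6.09 (2.01 to 30.1, adjusted p = 0.0793 without those nuclei). Lin54, the subunit of the MuvB complex that reads the CHR, had 0 against 33 and 18 and was at least 3.83-fold higher (adjusted p = 0.0708 without those nuclei). Ezh2, the methyltransferase of Polycomb, had 212 and 277 CPM in non-cycling w1 and w2 nuclei and 690 and 767 CPM in cycling ones, a log2 change of 1.58 (SE 0.34, adjusted p = 0.000287). It had a UMI in 23 of 40 non-cycling nuclei. Zfp367, a zinc finger factor, had 1 and 1 UMIs against 49 and 43, a ratio of 10.4 (2.79 to 86.9).

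**Figure D3:**
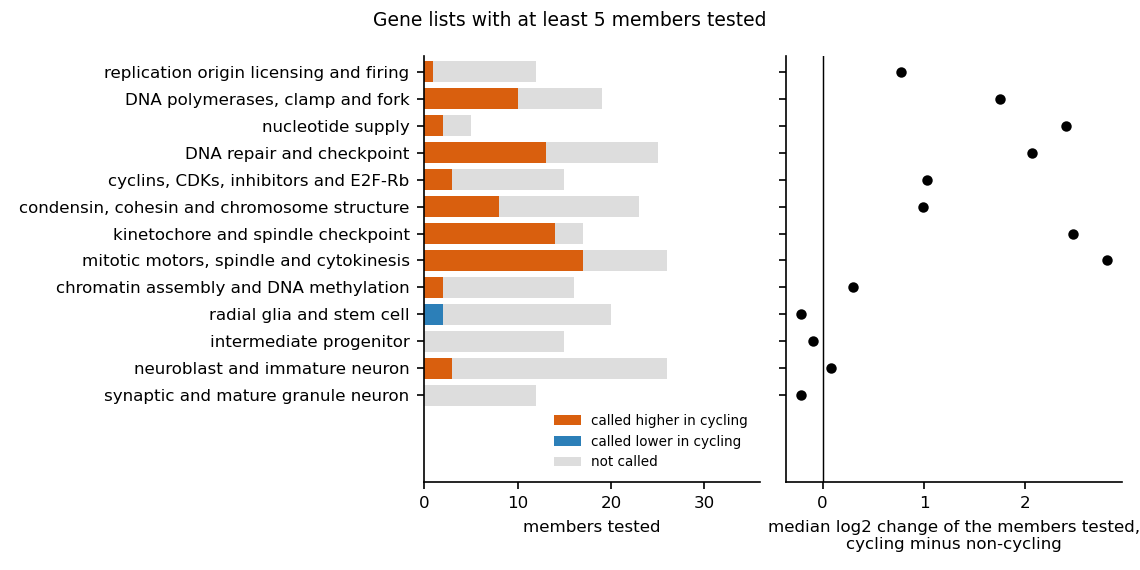
Members tested in each gene list with at least 5 of them (left, bars split into called higher, called lower and not called) and the median log2 change of those members, cycling over non-cycling NPC (right). The cell-cycle lists have medians from 0.30 to 2.80, and the lineage lists have medians from -0.21 to 0.08.

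Outside the lists, 45 genes were higher. The rule for naming genes put 2 of them among the 12 largest fitted rises, an order that a few UMIs in the non-cycling sums would change: Cdca2, which recruits a phosphatase to chromosomes as mitosis ends, with 0 against 51 and 41 UMIs (at least 6.91-fold higher), and Rtkn2, with 0 against 27 and 23 (at least 3.76-fold, adjusted p = 0.00637, or 0.0614 without nuclei of pseudo-time under 6). Gphn, Egfem1 and Adam23 were also higher and were picked out after values were seen. Gphn, the scaffold of inhibitory synapses, had 34, 38, 420 and 214 UMIs in non-cycling w1, non-cycling w2, cycling w1 and cycling w2 nuclei (log2 change 0.98, adjusted p = 0.0284). Egfem1 had 152, 123, 1585 and 688 (0.85, adjusted p = 0.0269), and Adam23, a cell adhesion gene, had 5, 16, 167 and 71 (1.33, adjusted p = 0.0203). Without nuclei of pseudo-time under 6, the log2 changes were 0.94, 0.77 and 1.24 and none of the 3 passed the threshold, with adjusted p of 0.0847, 0.0636 and 0.163. The non-coding RNA Eldr, listed downstream of Egfr, had 2 and 0 UMIs against 53 and 17, a ratio of 7.89 (2.10 to 66.4, adjusted p = 0.0276, or 0.120 without those nuclei), opposite in direction to Egfr.

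Summed over all members with a feature, filtered or not, each of the 9 cell-cycle lists was highest in cycling NPC among RGL, NB1 and the NPC classes of w1 and of w2. The kinetochore list had 668, 1030, 4426 and 690 CPM in RGL, non-cycling NPC, cycling NPC and NB1 of w1, and 586, 1057, 4675 and 717 CPM in w2. The fork list had 725, 1105, 4877 and 652 CPM in w1 and 620, 1718, 5069 and 737 CPM in w2. The cyclin and E2F-Rb list had 1453, 2726, 5205 and 1045 CPM in w1, and non-cycling NPC stood above RGL and NB1 for each of these 3 lists. Nuclei with 2 rule UMIs lay between the classes for the fork list, at 2194 CPM in w1 and 2066 CPM in w2, and near the non-cycling class for the kinetochore list, at 964 and 1162 CPM. Of the 115 genes, 105 were higher in cycling NPC than in RGL and NB1 of both libraries. Clusters were defined on these genes, and the 115 genes were chosen for their cycling level, so these levels are a description.

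**Figure D4:**
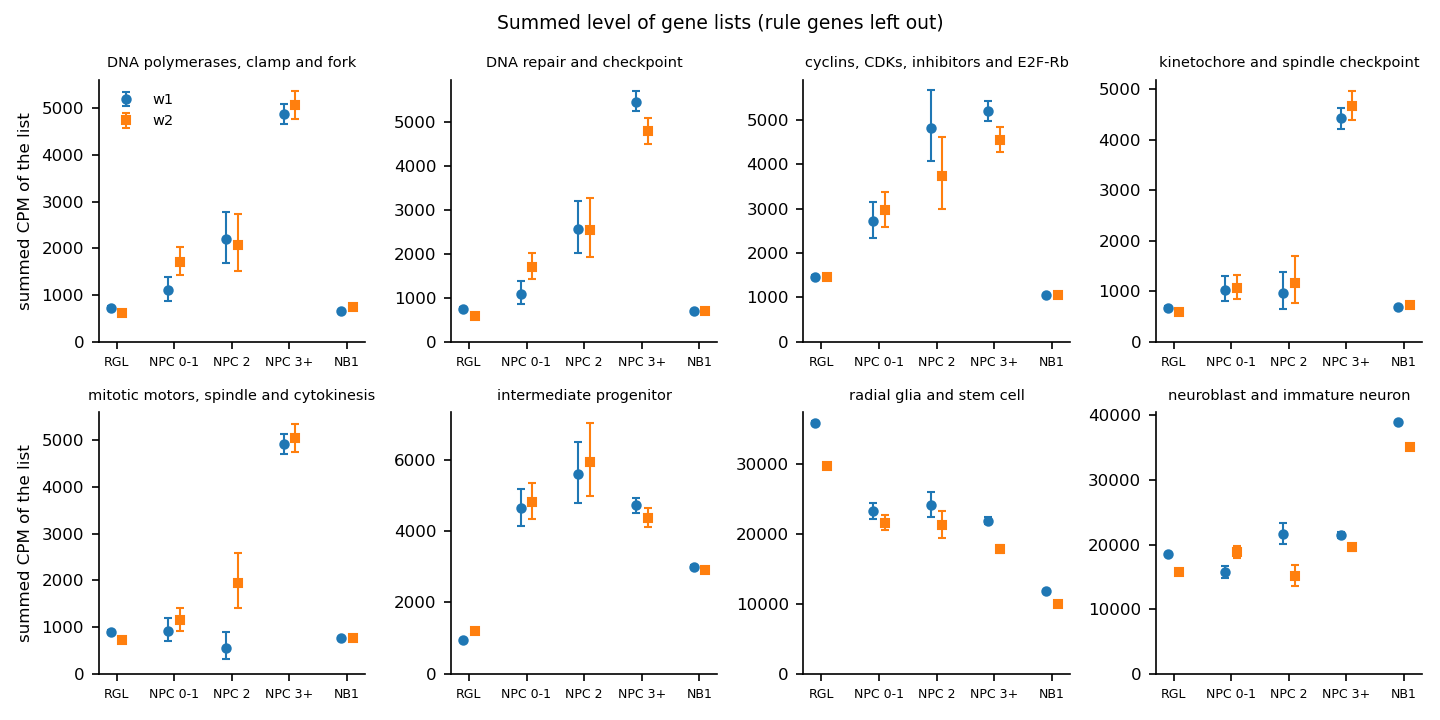
Summed level in CPM of 8 gene lists in RGL, in NPC with 0 or 1, 2, and 3 or more rule UMIs, and in NB1, for w1 and w2, with 95% counting intervals. The kinetochore list stands at 1030 CPM in non-cycling and 4426 CPM in cycling NPC of w1, while the intermediate progenitor list lies between 4373 and 5941 CPM in the NPC classes of both libraries.

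Of 15 intermediate progenitor genes tested, 0 were called by edgeR, beside 3.75% of all genes tested, and a count of 0 among so few is not unusual. DESeq2 also called 0 of them, but it called 2 of all 3813 genes, so this adds nothing. With edgeR, 1 had an unadjusted p under 0.05 (median log2 change -0.10). Eomes had 23, 14, 97 and 51 UMIs in non-cycling w1, non-cycling w2, cycling w1 and cycling w2 nuclei, and the 2 non-cycling levels in CPM lay on either side of the cycling ones. Its log2 change was -0.16 (SE 0.35, adjusted p = 0.928) and the CPM ratio was 0.902 (0.625 to 1.33). Elavl2 and Elavl4, RNA-binding proteins of young neurons, had log2 changes of -0.10 and 0.13. Prox1, the granule cell identity factor and a gene named after values were seen, had a UMI in 22 of 40 non-cycling and 93 of 133 cycling nuclei (log2 change -0.03).

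The radial glia and stem cell list had 20 genes tested, of which 0 were higher, 2 lower (beside 0.734% of all genes tested) and 18 not called (median -0.21), and its summed level was 23320 and 21616 CPM in non-cycling and 21932 and 17830 CPM in cycling nuclei of w1 and w2. RGL had 35898 and 29830 CPM and NB1 11866 and 10062 CPM. Of 12 synaptic genes, 0 were called by edgeR, beside 3.75% of all genes tested, and a count of 0 among so few is not unusual. DESeq2, which called 2 genes in all, also called 0. With edgeR, 2 had an unadjusted p under 0.05 (median -0.21). The astrocyte list, with Slc6a11 as its 1 tested gene (log2 change -1.52, adjusted p = 0.0626), was lower in sum in cycling nuclei, at ratios of 0.353 (0.218 to 0.586) in w1 and 0.523 (0.309 to 0.902) in w2, and stood at 666 and 695 CPM in RGL. The level of this list moved with that of the lower genes, and its part in them was not tested. Vcan of the oligodendrocyte list and Reln of the interneuron list, each the 1 tested member, were not called (log2 changes -0.66 and -0.05). Malat1 and mt-Rnr2, the 2 tested genes of the RNA quality list, had log2 changes of 0.07 and -0.33 and were not called.

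Of 26 neuroblast genes, 3 were higher (beside 3.02% of all genes tested) and 23 were not called (median 0.08). An unadjusted edgeR p under 0.05 was seen for 9 of the 26, beside 526 of all 3813 genes tested, and 15 of the 26 had a positive log2 change. The 3 higher genes were Nrxn3, Unc5d and Kcnq3. Nrxn3, a presynaptic adhesion gene, had 2 and 29 UMIs in non-cycling w1 and w2 nuclei and 494 and 278 in cycling ones, a log2 change of 2.66 (SE 0.34, adjusted p = 3.25e-11), but 19 of 133 cycling nuclei held all of them. With a limit of 5 Nrxn3 UMIs, set after the values were seen, 11 cycling nuclei (9 from w1 and 2 from w2) held 759 of the 772 UMIs. In these 11 nuclei there were 84 of the 123 cycling UMIs of Dlx1as and 33 of the 35 of Dlx6os1, RNAs of the Dlx loci that mark GABAergic lineages, together with 778 UMIs of the netrin receptor Dcc, 1 UMI of Eomes and 10 of Prox1. The other 122 cycling nuclei held 2713 UMIs of Dcc, 147 of Eomes, 177 of Prox1 and 13 of Nrxn3. These counts are not scaled: the 11 nuclei held 55901 UMIs in all and the other 122 held 572671. Prox1 was thus not absent from the 11, and Dcc was not confined to them. Dlx1 and Dlx2 gave 36 and 4 UMIs in the 11 nuclei and 16 and 8 in the other 122. Gad1, Gad2 and Slc32a1 of the interneuron list gave 0, 7 and 0 UMIs in the 11 nuclei and 2, 0 and 0 in the other 122. In non-cycling nuclei, 2 nuclei of w2 held 27 of the 29 w2 Nrxn3 UMIs. With nuclei at or over the limit left out of both classes, 136 genes were called, 106 higher and 30 lower. Unc5d, another netrin receptor, came from the remaining nuclei: 243 of its 244 cycling UMIs lay outside the 11, and its log2 change was 1.91 (1, 17, 118 and 126 UMIs, adjusted p = 0.000278). Kcnq3, a potassium channel, had 2, 13, 142 and 74 UMIs (1.74, SE 0.41, adjusted p = 0.00166, or 0.0795 without nuclei of pseudo-time under 6), with w2 non-cycling nuclei above those of w1 for all 3 genes.

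Among the genes that were lower in cycling nuclei, Egfr and Slc1a2 had the most UMIs. Egfr, the receptor through which epidermal growth factor acts on stem and progenitor cells, was named after its values were seen. It had 1514 and 1810 CPM in non-cycling w1 and w2 nuclei and 613 and 651 CPM in cycling ones, with no overlap, a log2 change of -1.38 (SE 0.27, adjusted p = 4.79e-05). It had a UMI in 30 of 40 non-cycling and 83 of 133 cycling nuclei, and no UMI in the pair of pseudo-time 3.16. Without nuclei of pseudo-time under 6 the log2 change was -1.46 (adjusted p = 0.00535). Over 21 alternatives the log2 change of Egfr was -1.94 to -1.10, and the call was lost in 4 of them: DESeq2 (adjusted p = 0.170), nuclei thinned to 2000 UMIs (0.337), w2 alone (0.0846) and nuclei with more X-linked than Y-linked UMIs (0.0850). In w4, 52 UMIs came from the 2 non-cycling nuclei and 47 from the 19 cycling ones. RGL had 414 and 378 CPM and NB1 26.9 and 27.4 CPM in w1 and w2, so that the non-cycling class had the highest of these levels.

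Slc1a2, the main glial glutamate transporter, had 1817 and 1546 CPM in non-cycling w1 and w2 nuclei and 797 and 753 CPM in cycling ones, a log2 change of -1.10 (SE 0.26, adjusted p = 0.00202), or -1.21 (adjusted p = 0.0115) without nuclei of pseudo-time under 6. RGL had 3681 and 3118 CPM and NB1 455 and 426 CPM, so for this gene the non-cycling class lay between RGL and the cycling class. Its log2 change was -1.42 to -0.83 over 21 alternatives, of which 11 lost the call, with DESeq2 (adjusted p = 0.617), thinning (0.337), w1 alone (0.182) and w2 alone (0.394) among them. Pde4b, a phosphodiesterase that degrades cyclic AMP, had 20, 35, 31 and 38 UMIs in non-cycling w1, non-cycling w2, cycling w1 and cycling w2 nuclei (303, 462, 76.9 and 168 CPM), a log2 change of -1.67, or -1.73 (adjusted p = 0.0133) without those nuclei. The other 3 genes that passed without them were Gpc5, a cell surface proteoglycan (-1.50), Dtna, a dystrophin-associated protein (-1.45), and Nr6a1, an orphan nuclear receptor (-1.38), all named after values were seen. The 80 non-cycling UMIs of Gpc5 came from 8 nuclei. Gli2, the transcription factor of hedgehog signalling, had 197 and 277 CPM against 86.9 and 75.3 CPM, a log2 change of -1.51 (adjusted p = 0.0228), or -1.59 (adjusted p = 0.0665) without those nuclei.

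Of the 28 lower genes, 11 took most of their non-cycling w1 UMIs from the pair and 11 had none in it. Slco1c1, a thyroid hormone transporter, had the largest fall among genes with at least 20 UMIs, with 18 and 14 UMIs against 7 and 6, a log2 change of -3.41 (adjusted p = 2.29e-07), and 12 of the 18 came from the pair. Without nuclei of pseudo-time under 6 the log2 change was -2.63 (adjusted p = 0.0622). The pair also gave 10 of 13 UMIs of Fras1, 14 of 15 of Samd12, 22 of 26 of Stk39 and 12 of 13 of Sptbn1. In the same refit, Samd12 and Stk39 had log2 changes of -0.57 and -0.67 and were not called, and Fras1 and Sptbn1 fell under the filter. Zbtb16, a zinc finger repressor, took 9 of 14 UMIs from the pair and had a log2 change of -2.27 (adjusted p = 0.318) in that refit. Another 3 of the 28, picked out after values were seen, turned direction in that refit and were not lower in cycling w2 nuclei either: Ptprg, which took 77 of its 93 non-cycling w1 UMIs from the pair, Tshz2 and Chn2, with log2 changes of 0.14, 0.076 and 0.53.

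Of the 12 largest falls, 4930448N21Rik (-2.05), Sorcs2, a sorting receptor (-1.70), Pde10a, a phosphodiesterase (-1.67), Nr3c2, the mineralocorticoid receptor (-1.60), and Mef2d, an activity-dependent transcription factor (-1.58), made up the rest. Sorcs2 had no UMI in the pair and a log2 change of -1.95 without nuclei of pseudo-time under 6, at an adjusted p of 0.0622. In the same refit 4930448N21Rik and Mef2d kept log2 changes of -1.98 and -1.38, and Pde10a and Nr3c2 went to -1.09 and -0.83, with none of the 4 called. None of the 28 genes was in a cell-cycle list.

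**Figure D5:**
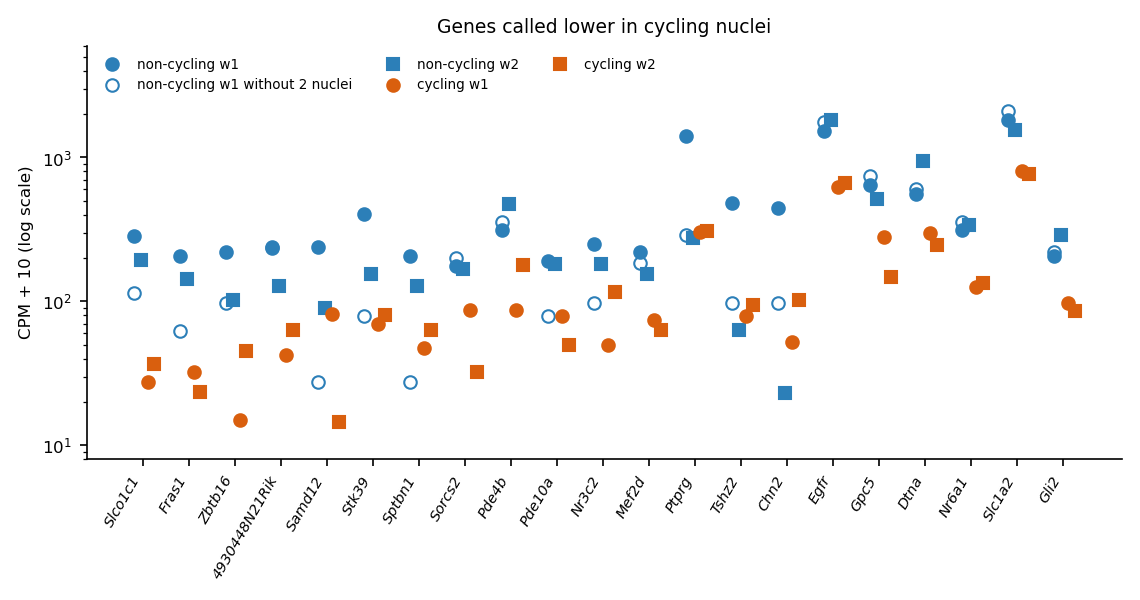
Level of 21 genes called lower in cycling NPC, as CPM + 10 on a log axis, in the sum of each class and library, with an open circle for non-cycling w1 nuclei without the 2 nuclei of pseudo-time 3.16. The open circles of Egfr and Slc1a2 stay above the cycling values, while those of Stk39, Samd12, Sptbn1 and Ptprg come down to or below a cycling value.

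The sequence letters shown at the start were counted in the windows from 250 bases before to 50 bases after each RefSeq start, 300 bases in all, on both strands. A window was found for 87 of the 115 higher genes (108 windows) and 20 of the 28 lower genes (33 windows). The E2F letters were TTTCGCGC, TTTGGCGC, TTTCCCGC, TTTGCCGC, TTCGCGCC, TTGGCGCC, TTGGCGGG and TTCCCGCC, some of which overlap each other and CCAAT read on the opposite strand. They were in 31.5% of the windows of higher genes, 0% of those of lower genes, 11.3% of those of all tested genes and 5.57% of all 32851 windows. CCAAT was in 52.8% and 24.2% of windows of higher and lower genes, beside 36.9% of tested and 37.4% of all. TTTGAA or TTTAAA was in 38.0% and 33.3%, beside 19.9% of tested and 27.6% of all, and CCAAT together with a CHR or E2F match was in 38.9% and 12.1%, beside 11.8% and 12.7%. Windows of a gene with several starts can overlap, and a match is a run of letters and not a bound site.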

How the data were processed

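The authors aligned reads of 10x Chromium 3′ v3.1 nuclear libraries to GRCm38 (mm10) with STARsolo 2.7.4a, without multi-mapped reads, and counted UMIs in exons and introns with default settings. The deposited count tables hold raw UMI counts of 45706 features in 17046 barcodes, of which 45143 features took a symbol by Ensembl ID. The authors' normalized table, log2 of UMIs over a scran size factor plus 1, was used only for its 14367 kept nuclei (doublets and low-quality nuclei removed by the authors), and clusters and pseudo-time were taken from their deposited annotation. Depth over kept nuclei was 13227971 to 28595331 UMIs a library.

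Raw UMIs were summed over cycling and over non-cycling NPC in w1 and w2. The 4 sums were tested with edgeR 4.0.16 in R 4.3.3 (filterByExpr on class, TMM, glmQLFit, glmQLFTest) with library as a block, since both classes of a library come from the same pool, leaving 1 residual degree of freedom. Rule genes were kept in totals and left out of the test. CPM are UMIs per 1000000 UMIs of a sum. DESeq2 1.42.0 was an alternative. Counting intervals are exact, conditional on the total, and cover counting error only, although UMIs of a gene gather in few nuclei. A gene with 0 UMIs in a class was set at 3 counts over both libraries, and one with 1 to 3 was given as a ratio.

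Named genes were the rule genes, the markers, the 12 largest called rises and falls with at least 20 UMIs and the same direction in both libraries, and per list the 4 called members with the most UMIs, or the 2 members with the most UMIs where none was called. The members, the rule and the gene lists were chosen with earlier results of these data known. The test was checked on simulated counts of 3749 genes. It recovered 13 of 67 genes changed 2-fold, 45 of 67 changed 4-fold and 66 of 66 changed 8-fold. False calls numbered 2. Genes that were not called can therefore still differ by 2-fold or 4-fold. Simulated counts cannot show whether the spread they assume holds between these pools, so the rate of false calls in the real data remains unknown. Promoter windows came from RefSeq (GRCm38.p6) and were matched by symbol. The w4 and w8 libraries entered no main test. The driver of the Cre allele is not reported here.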

Additional observations from a re-analysis of the deposited data

How the results depend on the processing

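The count of called genes, 143 (115 higher, 28 lower), differed between tools, depths and sets of nuclei and sums. Without the replicate block, that is, without the pairing of the classes by library, 115 genes were called (98 higher, 17 lower). Adding sums of the other clusters called 67 (82.1% higher against 80.4%), and leaving out w1 or w2 in a fit of that form gave 0 to 10 genes (6 higher, 4 lower, 60% higher), with 365 to 478 genes at an unadjusted p under 0.05. DESeq2 called 2 (both higher, 100%), with 91 at an unadjusted p under 0.05 and adding w4 called 38. Non-cycling nuclei with 0 rule UMIs alone gave 88, nuclei thinned to 2000 UMIs 0 (173 of 1777 at an unadjusted p under 0.05), classes set after thinning 19, and nuclei of 2500 to 8000 UMIs 28. Alternatives chosen after seeing the data gave 61 without nuclei of pseudo-time under 6, 8 with the deepest cycling nuclei of each library left out until the median UMIs per nucleus were no higher than in non-cycling ones, which does not match the whole distributions, and 1 in nuclei with more X-linked than Y-linked UMIs (155 of 1243 at an unadjusted p under 0.05). The other alternatives gave 130 to 213 genes. In the 21 alternatives with a fit, all tested genes of the 115 kept a positive log2 change, and those of the 28 a negative one, except Chn2 (2.83 without w1, -3.38 without w2 and 0.53 without nuclei of pseudo-time under 6), Ptprg (0.19, -2.27 and 0.14) and Tshz2 (0.69, -2.76 and 0.076). These fits share most nuclei, so they are no independent support. Over 75 named called genes and their alternatives, 808 of 1392 values stayed called with the same direction, 578 kept the direction alone and 6 were reversed. The share of cycling NPC went to 55.1% in w1 and 48.0% in w2 with the same limit after thinning, and the depth ratio in w1 to 1.44 in detected features. The prior degrees of freedom of the spread also differed between edgeR fits and were infinite in the main one. They were 33.4 without the replicate block, 13.1 with w4, 11.9 for nuclei of 2500 to 8000 UMIs and 4.10 for thinned nuclei. They were 22.7 with the deepest cycling nuclei left out and 10.9 for nuclei with more X-linked UMIs. The causes of these changes were not tested. With 40 non-cycling nuclei, a gene absent from them could still be present at up to 21.2 CPM.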

Other observations

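Mki67, unlike Top2a and Neil3, was also found in older neurons. A UMI of Mki67 was in 26.1% of NPC, 0.310% of NB1 and 0.577% of RGL nuclei, but in 9.71% of GCmat1 and 9.42% of GCyoung nuclei, at a median of 8138 and 7458 UMIs per nucleus. Top2a was in 0.0596% and 0.276% of the same GCmat1 and GCyoung nuclei, and Neil3 in 0.149% and 0.0460%. Mcm6 was in 12.6% of GCmat1 and 9.33% of GCyoung nuclei, beside 5.20% of NB1 and 48.3% of NPC. Pola1 was in 37.6% of GCmat1 and 37.5% of GCyoung nuclei, beside 37.6% of NB1 and 81.5% of NPC. In the clusters that the authors labelled Astro, Oligo and Peri, Mki67 was in 0 of 67, 0 of 45 and 0 of 60 nuclei. Their medians were 4670, 4801 and 5108 UMIs per nucleus. The shares are not set to a common depth, and GCmat1 nuclei were deeper than NPC.

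The 2 NPC of w8 lay at pseudo-time 3.16, as did the pair of non-cycling w1 nuclei with choroid plexus and endothelial genes, and w4 had 1 cycling nucleus at 2.29.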
